A study of Mus musculus with 9 samples.

Results

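The insulin-like growth factor (IGF) genes described here were 9 genes chosen by symbol and matched to the array through their Entrez Gene numbers: the ligand gene Igf1, the receptor genes Igf1r and Igf2r, and the binding protein genes Igfbp2, Igfbp3, Igfbp4, Igfbp5, Igfbp6 and Igfbp7. They were 9 of the 25206 genes in the expression table. All 9 were above the array median on all 9 arrays and entered the tests with 14096 genes in all.

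The study asked how gene expression of pulmonary lymphatic endothelial cells (PLECs) changes in the last days before birth in the mouse. PLECs were sorted from lungs of fetuses of C57BL/6N dams at 3 ages (E16.5, then E17.5, then E18.5) by the gate CD45-/Epcam-/CD31+/Vegfr3+/Lyve1+/Pdpn+, and the labels set the 3 groups apart by age alone. Each day had 3 samples, and lungs from 2 litters were pooled for each of them, so an error below is the spread between pools and not between fetuses. Total RNA was read on Mouse Gene 2.0 ST arrays, which give 1 normalized log2 expression value per gene and array. With 3 arrays per day, their number limits the precision of every comparison. Values of different genes come from different probes, so they are compared between days within a gene and not between genes.

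IGF ligands bind the receptor tyrosine kinase Igf1r, which signals through insulin receptor substrates to PI3K and Akt and promotes growth and survival. Igf2r, also the cation-independent mannose 6-phosphate receptor, has no kinase; it takes Igf2 up and carries it to lysosomes. The IGF binding proteins are secreted proteins that hold the ligands in extracellular fluid and at the cell surface, where they can limit or prolong access to the receptor, and proteases that cut them release the ligand. Mice without Igf1r die at birth of respiratory failure.

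Between E16.5 and E18.5, 2 binding protein genes rose, Igfbp6 by 2.78-fold and Igfbp7 by 2.29-fold, and none of the 9 genes fell. Igfbp6 stayed near its E16.5 level at E17.5 and was higher at E18.5, whereas each later day had higher Igfbp7 than the day before in every sample. Neither receptor gene passed a test between any pair of days. Over the 3 days, 2 of the 9 genes changed (limma F test, false discovery rate (FDR) q under 0.05, Benjamini-Hochberg over all tested genes), while 9.09% of all tested genes did. At E18.5 against E16.5 the percentages of all tested genes called were 3.77% higher and 6.21% lower. The median log2 change of the 9 genes was 0.143, that of all tested genes -0.039.

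**Figure D1:**
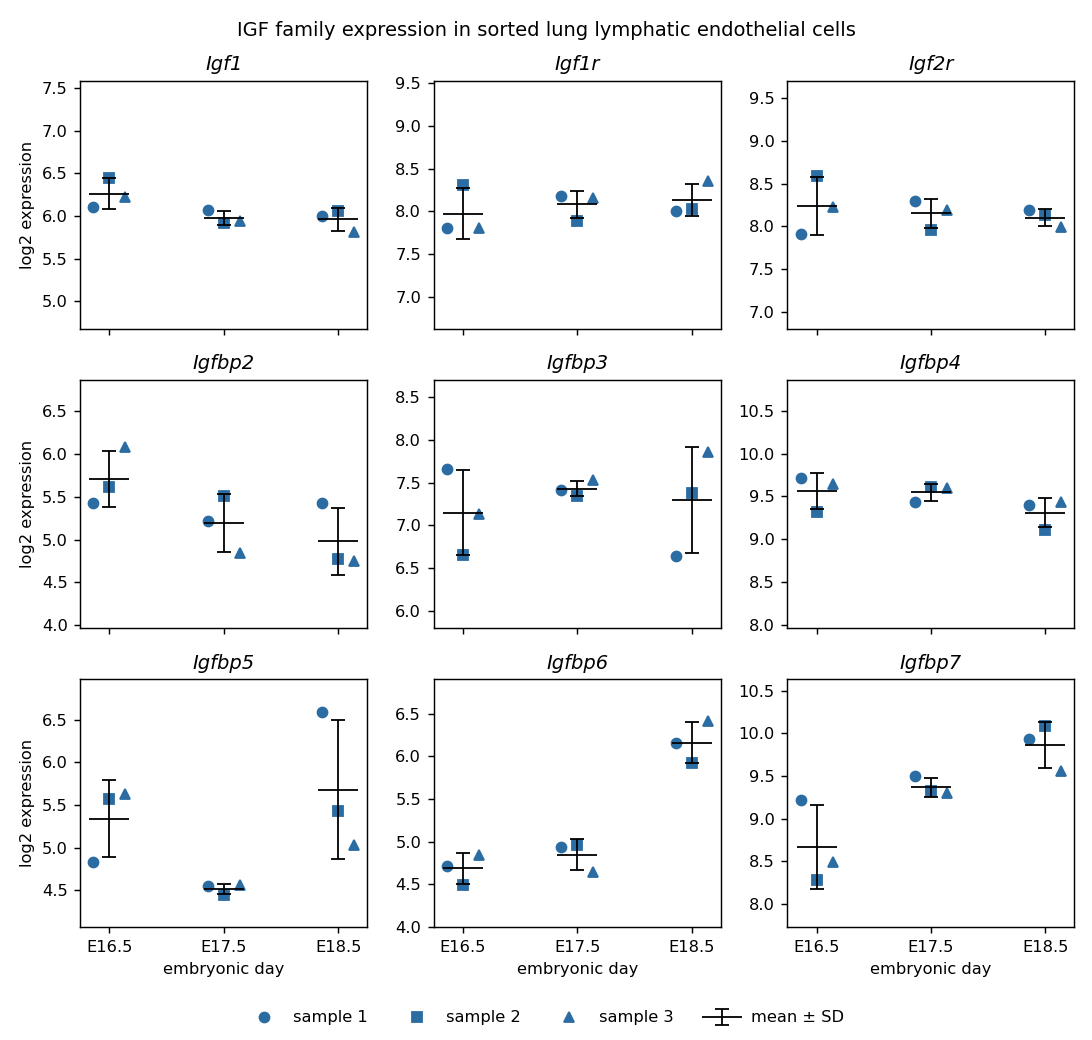
Log2 expression of the 9 IGF genes (vertical axes, each with the same span of log2 units) by embryonic day (horizontal axes) in PLECs. Symbols are the 3 samples of each day and bars the mean ± SD; Igfbp6 at E18.5 lay between 5.92 and 6.41, above all 6 samples of the earlier days, and the Igf1r samples of the 3 days overlapped.

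Igf1 encodes the ligand that drives growth through Igf1r. On the log2 scale it was 6.10, 6.45 and 6.22 in the 3 E16.5 samples, 6.07, 5.92 and 5.94 at E17.5, and 6.0, 6.06 and 5.81 at E18.5. Each E16.5 sample lay above each sample of the later days, and the samples of E17.5 and E18.5 overlapped. The difference between E18.5 and E16.5 was -0.30 on the log2 scale (SE 0.13, 95% interval -0.61 to 0.02) and did not pass the test (limma adjusted p = 0.2). From E16.5 to E17.5 it was -0.28 (limma adjusted p = 0.34).

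The receptor genes showed no order of days beyond their spread. Igf1r had log2 values of 7.80, 8.31 and 7.80 at E16.5, 8.18, 7.89 and 8.16 at E17.5, and 8.0, 8.03 and 8.35 at E18.5. The samples of the 3 days overlapped, and the second E16.5 sample stood above the other two of its day. The difference of E18.5 minus E16.5 was 0.15 (95% interval -0.27 to 0.58; limma adjusted p = 0.6), so the interval reached from a small decrease to an increase of over 0.5 log2 units. Igf2r had log2 values of 7.91, 8.59 and 8.22 at E16.5, 8.29, 7.96 and 8.19 at E17.5, and 8.19, 8.13 and 7.99 at E18.5. These also overlapped, with both the lowest and the highest sample at E16.5. Its difference of E18.5 minus E16.5 was -0.14 (95% interval -0.56 to 0.28; limma adjusted p = 0.64), and it was 0.03 without the second E16.5 sample.

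Igfbp2 encodes a binding protein of fetal tissues that can also bind integrins. The 3 samples of a day had log2 values of 5.43, 5.62 and 6.08 at E16.5, 5.22, 5.51 and 4.84 at E17.5, and 5.43, 4.77 and 4.75 at E18.5. The E18.5 samples lay below those of E16.5, although the highest E18.5 sample and the lowest E16.5 sample were equal at 2 decimals, and the E17.5 samples overlapped both days. The difference of -0.73 between E18.5 and E16.5 (SE 0.24, 95% interval -1.29 to -0.16) did not pass the test (limma adjusted p = 0.1). Igfbp2 was the 1 gene of the 9 lower at an unadjusted limma p under 0.05, where 16.9% of all tested genes were. Igf1 and Igfbp2 were thus the 2 genes of the 9 that were lower at E18.5 with no overlap of samples, against 18.3% of all tested genes.

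Igfbp3 encodes the main carrier of IGFs in adult serum. Its log2 values were 7.66, 6.66 and 7.14 at E16.5, 7.42, 7.35 and 7.53 at E17.5, and 6.64, 7.38 and 7.86 at E18.5. The 3 E17.5 samples lay close together and inside the range of either other day. The spread between samples of the same day (pooled SD 0.462) was larger than that of 94.2% of the tested genes. The difference of E18.5 minus E16.5 was 0.14 (95% interval -0.70 to 0.99; limma adjusted p = 0.82).

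Igfbp4 encodes a binding protein that the protease Pappa cuts. It had log2 values of 9.71, 9.32 and 9.64 at E16.5, 9.43, 9.61 and 9.60 at E17.5, and 9.40, 9.11 and 9.43 at E18.5. Of the 9 genes it was the only one with every E18.5 sample below every E17.5 sample, again with the nearest samples equal at 2 decimals. Among all tested genes 11.5% had that order. The difference was -0.23 from E17.5 to E18.5 (limma adjusted p = 0.42) and -0.24 from E16.5 to E18.5 (95% interval -0.60 to 0.11; limma adjusted p = 0.33).

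Igfbp5, which encodes a binding protein held in the extracellular matrix, was lowest at E17.5. Its log2 expression was 4.83, 5.57 and 5.63 at E16.5, 4.55, 4.45 and 4.56 at E17.5, and 6.59, 5.43 and 5.03 at E18.5. All 3 E17.5 samples lay below every sample of both other days, which overlapped each other. The change was -0.82 from E16.5 to E17.5 (SE 0.35; limma adjusted p = 0.32) and 1.16 from E17.5 to E18.5 (SE 0.35, 95% interval 0.37 to 1.95; limma adjusted p = 0.13). The later change exceeded the earlier one by 1.98 (SE 0.61; limma adjusted p = 0.52). For that test 0 of the 14096 genes passed the adjusted threshold and 8.11% had an unadjusted limma p under 0.05, 2 of the 9 among them (Igfbp5 and Igfbp6).

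The values of Igfbp5 depended on single E18.5 samples. Within-day spread (pooled SD 0.535) was larger than that of 96.84% of the tested genes, chiefly because the first E18.5 sample stood at 6.59. Without that sample the step from E17.5 to E18.5 was 0.71 (limma adjusted p = 0.24), and the difference of E18.5 minus E16.5 went from 0.34 to -0.11. Without the third E18.5 sample, the lowest of that day, the step was 1.49 and passed the test (limma adjusted p = 0.043).

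Igfbp6 encodes a binding protein with a marked preference for Igf2. Log2 values were 4.72, 4.49 and 4.85 at E16.5, 4.94, 4.96 and 4.65 at E17.5, and 6.16, 5.92 and 6.41 at E18.5. The samples of the first 2 days overlapped and those of E18.5 lay above all of them. In mean ± SD (n = 3), the levels were 4.69 ± 0.18, 4.85 ± 0.18 and 6.16 ± 0.24. Igfbp6 changed over the 3 days (F = 52.0; limma adjusted p = 0.0013) and rose from E16.5 to E18.5 by 1.48 on the log2 scale (SE 0.16, 95% interval 1.09 to 1.86; limma adjusted p = 0.0045).

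By step, the log2 change of Igfbp6 was 0.17 from E16.5 to E17.5 (limma adjusted p = 0.66) and 1.31 from E17.5 to E18.5 (SE 0.16, 2.48-fold; limma adjusted p = 0.0091). The later step was larger by 1.14 (SE 0.27; limma adjusted p = 0.47), so the difference between the steps did not pass across all genes. In this last step Igfbp6 was the 1 gene of the 9 called, where 1.18% of all tested genes were called higher and 0.717% lower. Leaving out the third E17.5 sample gave a step of 1.21 that missed the threshold (limma adjusted p = 0.056). In that fit 6 of all tested genes passed for this step, against 267 with all samples. The rise from E16.5 to E18.5 was called with any 1 of the 6 samples of those days left out (limma adjusted p up to 0.028). The E17.5 samples do not enter that fit, so leaving them out could not change the estimate.

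Igfbp7 encodes a secreted protein that binds IGFs weakly and is found in vessel walls. Its log2 expression was 9.22, 8.28 and 8.49 at E16.5, 9.50, 9.32 and 9.30 at E17.5, and 9.93, 10.08 and 9.56 at E18.5. No 2 days overlapped, and the order of the days was the same in every pair of samples. The levels were 8.67 ± 0.49, 9.37 ± 0.11 and 9.86 ± 0.27 (mean ± SD, n = 3). Igfbp7 changed over the 3 days (F = 13.6; limma adjusted p = 0.026) and rose by 1.19 from E16.5 to E18.5 (SE 0.26, 95% interval 0.58 to 1.81; limma adjusted p = 0.035).

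Neither step of Igfbp7 passed alone. The change was 0.71 from E16.5 to E17.5 (SE 0.23; limma adjusted p = 0.22) and 0.49 from E17.5 to E18.5 (SE 0.23; limma adjusted p = 0.31), and the steps differed by -0.22 (SE 0.40; limma adjusted p = 0.91). Whether the rise from E16.5 to E18.5 passed depended on single samples. Its log2 change stayed between 1.00 and 1.47 with any 1 sample left out. It was 1.00 without the second E16.5 sample (limma adjusted p = 0.1), 1.1 without the third (adjusted p = 0.13), 1.16 without the first E18.5 sample (adjusted p = 0.1) and 1.08 without the second (adjusted p = 0.1), none of which passed. In the fits that missed the threshold, 173 to 319 of all tested genes were called higher, against 532 with all samples. With every gene of the table tested, the limma adjusted p of Igfbp7 was 0.06. For the same contrast taken from the fit on all 9 arrays it was 0.0087.

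**Figure D2:**
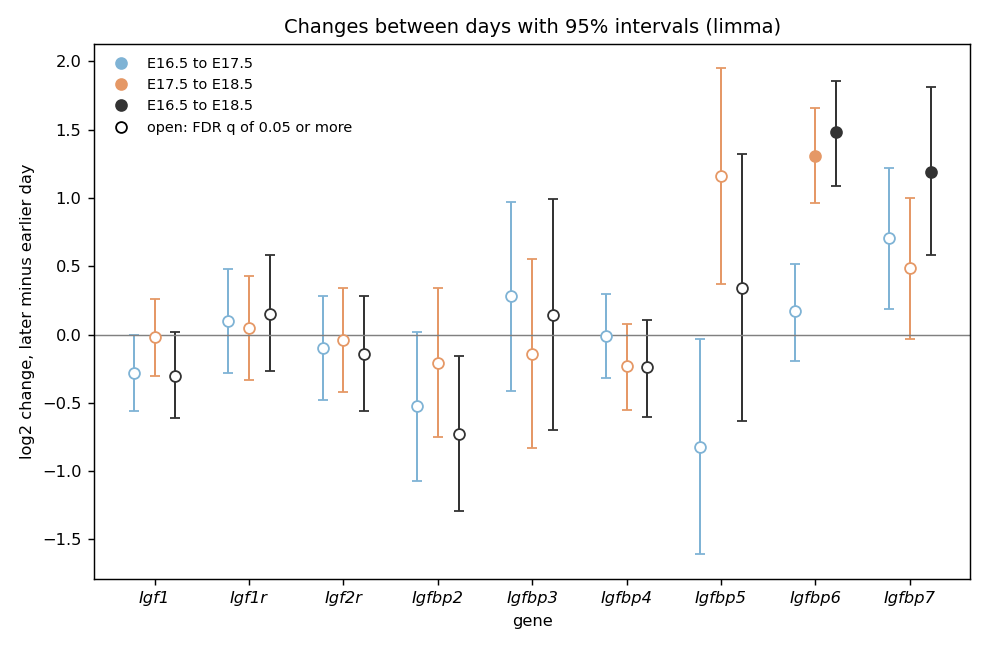
Log2 change of each IGF gene between days (vertical axis, later minus earlier day) with 95% intervals from limma, for both single steps and for E16.5 to E18.5. Filled points passed FDR q under 0.05: Igfbp6 from E17.5 to E18.5 (1.31) and from E16.5 to E18.5 (1.48), and Igfbp7 from E16.5 to E18.5 (1.19).

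Between E16.5 and E17.5, 0 of the 9 genes passed the test, as did 0% of all tested genes in the upward and 0.149% in the downward direction. At an unadjusted limma p under 0.05, 1 of the 9 was higher (Igfbp7) and 1 lower (Igfbp5), where 5.44% and 9.27% of all tested genes were. Samples of these days did not overlap for Igfbp7, which was higher at E17.5, or for Igf1 and Igfbp5, which were lower, against 8.19% and 11.9% of all tested genes. From E17.5 to E18.5, Igfbp5, Igfbp6 and Igfbp7 were higher with no overlap, against 8.37%. At an unadjusted limma p under 0.05, 2 of the 9 were higher in that step (Igfbp5 and Igfbp6) and 0 lower, against 8.56% and 9.04%. From E16.5 to E18.5 only Igfbp6 and Igfbp7 were higher with no overlap, against 11.9%, and the same 2 were higher at an unadjusted limma p under 0.05, against 11.1%.

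The promoters of the genes that rose are shown because they differ in base composition. They were taken from RefSeq (GRCm38.p6) as the 150 bases before the annotated start, 5′ to 3′ on the gene's strand, with the letters TATAAA of a TATA box and the letters GGGCGG of a GC box, matched on either strand, in capitals.
Igfbp6, chr15:102144036-102144185, plus strand: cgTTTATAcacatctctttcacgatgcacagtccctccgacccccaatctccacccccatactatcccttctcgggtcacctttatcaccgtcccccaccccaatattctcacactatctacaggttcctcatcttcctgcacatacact
Igfbp7, chr5:77408046-77408195, minus strand: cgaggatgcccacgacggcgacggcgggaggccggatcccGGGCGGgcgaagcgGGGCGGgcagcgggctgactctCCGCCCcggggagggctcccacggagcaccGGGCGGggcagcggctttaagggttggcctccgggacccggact

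Over the 250 bases before the start, the Igfbp7 window had 74.0% GC and 26 CpG dinucleotides, and the Igfbp6 window 49.6% GC and 7 CpG. The median over 32851 such windows of all genes was 52.4% GC and 6 CpG. Igfbp6 had the lowest GC content of the 10 windows of the 9 genes (Igfbp2 has 2 annotated starts), which ranged up to 77.6%. Igfbp7 had 4 GC box matches, 3 of them on the gene's strand, and 32.7% of all windows had at least 1. Igfbp6 had 1 TATA box match, on the opposite strand at bases 148 to 143 before the start, and 12.4% of all windows had at least 1. These are matches of letters, and binding was not measured. Igfbp2 and Igfbp5 are neighbours on chromosome 1 in opposite directions with 0 annotated genes between them, and their values did not share an order of days: Igfbp5 was lowest at E17.5 and Igfbp2 had its lowest mean at E18.5.

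The genes whose pattern over the 9 samples was nearest to each risen gene were found by the root-mean-square distance of the log2 values after each gene's mean was subtracted. For Igfbp6 they were Tppp3 (distance 0.108), a tubulin polymerization gene, Itpkc (0.154), an inositol trisphosphate kinase gene, and Ces1d (0.197), a carboxylesterase gene. Their log2 changes from E16.5 to E18.5 were 1.36, 1.51 and 1.41. For Igfbp7 they were Serpina3g (0.183), a serine protease inhibitor gene, Rhbdf2 (0.196), which encodes an inactive rhomboid protein, and Ctla2a (0.209), a cysteine protease inhibitor gene. Their log2 changes were 1.38, 1.01 and 0.80. Since they were chosen for likeness to the 2 risen genes, these changes carry no test.

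The other ligands, carriers, proteases and signalling genes of the pathway were read from lists of their own, beside the median log2 change of -0.039 over all tested genes from E16.5 to E18.5. Of the 7 other ligand and binding protein genes, Igf2 alone was above the array median on any array; Ins1, Ins2, Igfbp1, Igfals, Igfbpl1 and Kazald1 were below it on every array. Igf2, the ligand that Igfbp6 prefers, had log2 values of 8.67, 8.49 and 8.86 at E16.5, 7.88, 7.81 and 8.33 at E17.5, and 8.71, 8.22 and 7.30 at E18.5. All E17.5 samples lay below those of E16.5, while those of E18.5 spanned both days. Its difference of E18.5 minus E16.5 was -0.59 (limma adjusted p = 0.29).

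None of the 5 tested genes for binding protein proteases and their inhibitors was called from E16.5 to E18.5 (median 0.09). The largest difference among them was that of Pappa, at 0.21 (limma adjusted p = 0.55). None of the 11 tested genes of mannose 6-phosphate sorting, the route that Igf2r serves, was called (median -0.31). Gga2, an adaptor that carries the receptor out of the Golgi, had the largest difference at -0.76 (limma adjusted p = 0.054).

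Of the 12 tested genes for insulin receptors and adaptors, 1 fell and 0 rose (median -0.04), where 6.21% of all tested genes fell. The gene that fell was Grb10, an imprinted adaptor that dampens signalling of Igf1r and the insulin receptor. Its log2 expression was 9.98, 10.03 and 10.15 at E16.5, 9.60, 9.64 and 9.56 at E17.5, and 9.32, 9.19 and 9.19 at E18.5. No 2 days overlapped, and each day lay below the day before. Grb10 fell by 0.82 from E16.5 to E18.5 (SE 0.11; limma adjusted p = 0.0069), and neither single step passed (adjusted p = 0.11 and 0.1).

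Downstream, 1 of the 25 tested genes of the PI3K, Akt, mTOR and Foxo branch fell and 0 rose (median -0.10), where 6.21% of all tested genes fell. This was Pik3r3, a regulatory subunit of PI3K, with a change of -0.53 (limma adjusted p = 0.045), which did not pass over the 3 days (limma adjusted p = 0.1). The growth hormone pathway induces Igf1 in liver. Of its 6 genes 2 rose and 0 fell (median 0.41), where 3.77% of all tested genes rose. Both encode feedback inhibitors of cytokine receptors: Socs2 rose by 0.80 (limma adjusted p = 0.019) and Cish by 0.74 (limma adjusted p = 0.049). Neither passed over the 3 days (limma adjusted p = 0.11 and 0.12). Socs2 was 5.49, 5.19 and 5.59 at E16.5, 6.02, 5.21 and 6.11 at E17.5, and 6.05, 6.32 and 6.29 at E18.5, so that the E17.5 samples overlapped both other days, which did not overlap each other.

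**Figure D3:**
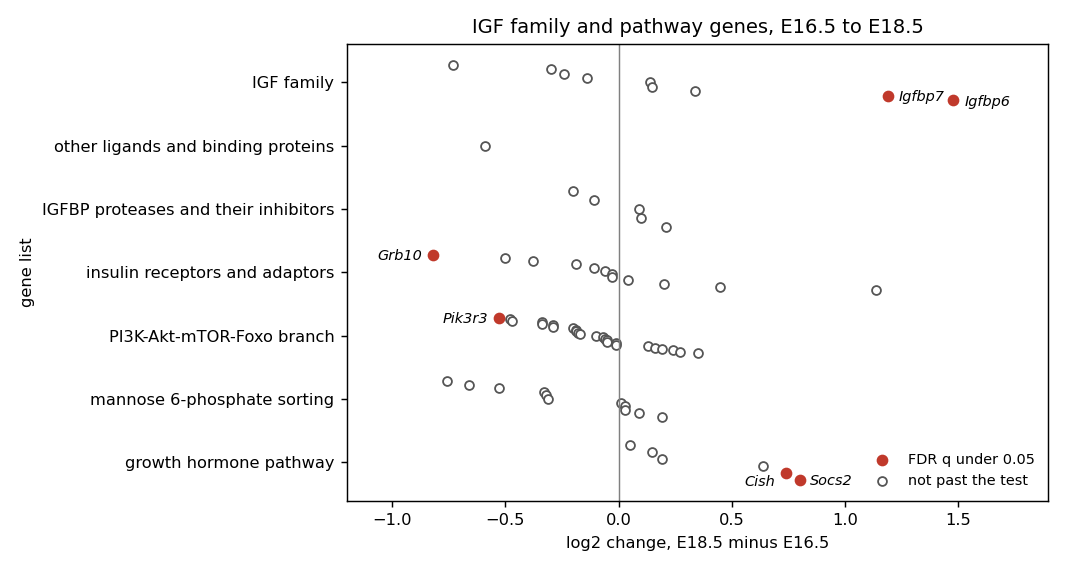
Log2 change from E16.5 to E18.5 (horizontal axis) of each tested gene of the IGF family and of 6 pathway lists (vertical axis, points of a list spread for visibility). Filled points passed FDR q under 0.05: Igfbp6, Igfbp7, Socs2 and Cish were higher and Grb10 and Pik3r3 lower.

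The genes of the sort were read against the array median. This cannot separate cell types, since Emcn, Sftpc and Col1a1, from lists of other cells, were also above it on all 9 arrays. Over the 9 arrays the pan-endothelial gene Pecam1 (CD31), the lymphatic genes Lyve1, Flt4 (Vegfr3) and Prox1 and the gate gene Pdpn were above the array median on all 9 arrays, and Ptprc (CD45) on 1. Epcam, an epithelial surface gene that the gate should exclude, was above the median on all 9. Pecam1 had a log2 difference of -0.04 between E18.5 and E16.5 and Lyve1 of 0.03, and neither passed. Of the 8 genes of the lymphatic list, which holds Pecam1, Pdpn rose (by 1.46; limma adjusted p = 0.015) and 0 fell. Among all tested genes, 3.77% rose and 6.21% fell from E16.5 to E18.5. In sorted bulk samples, a change in the number of cells of a type and a change in RNA per cell cannot be told apart.

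Genes of other cells were also higher on the day Igfbp6 and Igfbp7 were highest. Of 19 epithelial genes 8 rose and 0 fell from E16.5 to E18.5, where 3.77% of all tested genes rose and 6.21% fell. The summed linear expression of the 19 was 1587 to 3793 at E16.5, 1584 to 2449 at E17.5 and 5163 to 5897 at E18.5. Sftpc and Clic5 had the highest means of the list and were above the median on all 9 arrays. Sftpc was 9.28 to 11.17 at E16.5 and was not called (0.70; limma adjusted p = 0.34), while Clic5 rose by 1.39 (limma adjusted p = 0.01). Of 3 tested mesothelial genes, Msln, a surface protein gene of mesothelium, rose by 2.41 (limma adjusted p = 0.0013), the other two were not called, and Lrrn4 was below the median on every array. The sum of that list was 55 to 67 and 62 to 74 on the first 2 days and 145 to 153 at E18.5. The epithelial and mesothelial sums were thus highest in the 3 samples with the highest Igfbp6.

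Of 10 tested fibroblast genes, 2 rose, Inmt and Dpt, named here after their values were seen (log2 changes 3.84 and 3.19; limma adjusted p = 0.0019 and 0.0047). Mfap4 and Col1a1, the fibroblast genes with the highest means, were above the median on all 9 arrays and were not called (0.97 and 0.49; limma adjusted p = 0.056 and 0.48), and Lum was below it on every array. The summed fibroblast genes were 2456 to 3347 at E16.5, 2758 to 3712 at E17.5 and 3309 to 6998 at E18.5. For each list of this paragraph the shares of all tested genes were 3.77% that rose and 6.21% that fell from E16.5 to E18.5. Of the 11 genes of blood endothelium, 2 rose and 1 fell. Their sums were 3728 to 4912 at E16.5, 4637 to 4845 at E17.5 and 3795 to 4591 at E18.5. The 3 blood endothelial genes that were called were also named after their values were seen. Car4, a carbonic anhydrase gene of lung capillaries, had means of 4.80, 6.80 and 8.42 on the 3 days and rose by 3.62 (limma adjusted p = 0.0035), with no 2 days overlapping, as for Igfbp7. Vwf, the von Willebrand factor gene, rose by 0.89 (limma adjusted p = 0.023), and Plvap, a gene of fenestrated vessels, fell by 0.76 (limma adjusted p = 0.04). Emcn and Aplnr, the blood endothelial genes with the highest means, were above the median on all 9 arrays. Neither was called (-0.32 and -0.75; limma adjusted p = 0.21 and 0.15). Emcn, which the study used as a marker of blood endothelium, was 10.31 to 10.94 over the 9 arrays. By qRT-PCR at E18.5 the study measured more Emcn in CD31+/Vegfr3- cells than in PLECs. No such cells were on these arrays, so the array values cannot be set against another fraction. Of 9 platelet genes and 4 red cell genes 1 each rose, and of 10 genes of smooth muscle and pericytes and 6 tested genes of macrophages and leukocytes 0 were called. Of the macrophage and leukocyte genes, Cd68 and Cx3cr1 were above the median on all 9 arrays, and Adgre1, C1qa and Fcgr1 on none. All 10 genes of dividing cells fell, with sums of 2067 to 2780 at E16.5, 1298 to 1627 at E17.5 and 686 to 910 at E18.5. The part of these other cells in the values of Igfbp6 and Igfbp7 was not tested.

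Within E18.5, the sums of 5 of the 10 cell lists had the same order of samples as Igfbp5. In the order of samples 1, 2 and 3, where Igfbp5 was 6.59, 5.43 and 5.03, the summed fibroblast genes were 6998, 6138 and 3309 and the summed platelet genes 2937, 1772 and 581. The sums were 1031, 873 and 572 for smooth muscle and pericytes, 295, 169 and 142 for macrophages and leukocytes, and 930, 786 and 360 for red cells. Igf2 followed this order too. Igfbp3 had the opposite one at 6.64, 7.38 and 7.86, as did the summed lymphatic genes at 4194, 5028 and 5445. Within the lymphatic list, Lyve1, Pecam1 and Prox1 had that opposite order, while Flt4, Pdpn, Reln, Mmrn1 and Itga9 were highest in sample 2. Igfbp6, at 6.16, 5.92 and 6.41, had the sample order of the mesothelial sum, at 151, 145 and 153. The sums of blood endothelium, at 3877, 3795 and 4591, and of dividing cells, at 783, 686 and 910, had that order too. Msln, the mesothelial gene that rose, had another order, at 6.39, 6.69 and 6.79. So did Wt1 at 3.87, 3.97 and 4.06, Upk3b at 5.5, 4.39 and 4.25, and Lrrn4 at 2.81, 2.35 and 2.72. No single gene of the mesothelial list thus had the order of its sum, whose values lay close together. The third E18.5 sample, whose fibroblast and platelet sums lay within the ranges of E16.5 and within or below those of E17.5, had the highest Igfbp6 of the 9. Igfbp7 at E18.5 was lowest in the same sample, at 9.56. The part of these cells in Igfbp3 and Igfbp5 was not tested.

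**Figure D4:**
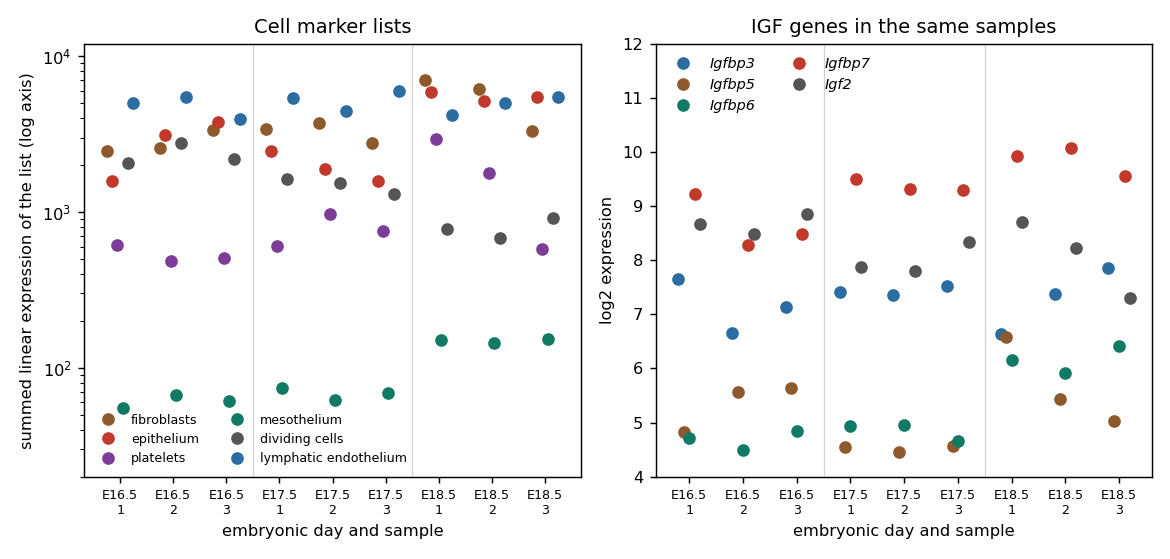
Left, summed linear expression of 6 cell marker lists in each of the 9 samples (log axis). Right, log2 expression of Igfbp3, Igfbp5, Igfbp6, Igfbp7 and Igf2 in the same samples; at E18.5 the fibroblast and platelet sums were highest in sample 1, as was Igfbp5, while Igfbp6 was highest in sample 3.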

How the data were processed

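RNA of PLECs from 9 samples (3 per day) was hybridized to 1-colour arrays. Per the submitters' processing notes and the study's methods, the authors normalized the arrays by RMA (affy 1.36.1, R 2.15.1). The deposited values are log2 expression, 1 per Entrez Gene probe set, and were used as given. The genome build of the probe sets is not given in the sources used here. Symbols came from the Entrez Gene numbers for 23740 of 25206 rows.

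Following the study's methods, genes above the median of at least 1 array were tested (14096). Linear models and moderated tests were fitted with limma 3.58.1 (R 4.3.3), with Benjamini-Hochberg adjustment over the tested genes and a threshold of 0.05. E16.5 and E18.5 were compared in a fit on their 6 arrays, and the other contrasts came from a fit on all 9. The fits were first tested on simulated data. Array medians ranged from 3.79 to 3.91, and no array was left out.

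The members and gene lists were chosen with earlier results of these data known. Named from each pathway list were up to 3 called genes with the largest change between E16.5 and E18.5, or the 1 with the largest change where none was called, and from the cell lists the sort genes, Prox1 and up to 2 genes with the highest mean. Some listed genes below the array median on every array were named besides. For each member that changed over the 3 days, the 3 nearest genes were named. Of 174 listed genes 173 had a row. Same-numbered samples of different days did not deviate together (of 9 pairs, 2 had a correlation over 0.1; range -0.36 to 0.29), so the numbers were not used as pairs. The alternatives were other filters, normalizations and variance models, array weights, a replicate block and each sample left out. One of them, with the variance model fitted to the tested genes only, was added after the data were seen.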

Additional observations from a re-analysis of the deposited data

How the results depend on the processing

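Over the alternatives, 445 of the recomputed log2 changes of the 9 genes kept direction and side of the threshold, 16 turned sign, 6 no longer passed and 1 newly passed. Many of them could not turn sign. Other filters and variance models leave the log2 change as it is and move only its adjusted p. Leaving out a sample of a day outside the comparison leaves the log2 change as it is too. With 1 sample left out, the count of genes changed over the 3 days ranged from 1 to 2 (2 with all samples), the count higher at E18.5 than E16.5 from 1 to 2 (2 with all samples), and the count changed from E17.5 to E18.5 from 0 to 2 (1 with all samples). With every gene of the table tested, 1 gene was higher at E18.5 than E16.5, since Igfbp7 missed the threshold. With the replicate number as a block, although the numbers do not pair the samples, 2 genes changed over the 3 days, 2 were higher and 0 lower at E18.5, 0 changed in the first step (E16.5 to E17.5), 1 in the second (E17.5 to E18.5), and 0 differently between the steps; Igfbp6 had an adjusted p of 0.011 and Igfbp7 of 0.039 from E16.5 to E18.5. Over all genes the block lowered the count changed from E17.5 to E18.5 from 267 to 146.

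Changes that did not pass the test turned sign. Array quality weights gave Igf1r a log2 change of -0.01 from E17.5 to E18.5. With 1 sample left out, the log2 change from E17.5 to E18.5 ranged from -0.07 to 0.05 for Igf1, from -0.06 to 0.11 for Igf1r, from -0.14 to 0.03 for Igf2r and from -0.42 to 0.19 for Igfbp3. In the first step it ranged from -0.26 to 0.08 for Igf2r and from -0.13 to 0.07 for Igfbp4, and over both steps from -0.30 to 0.03 for Igf2r, from -0.14 to 0.47 for Igfbp3 and from -0.11 to 0.67 for Igfbp5. The cause was not tested. Over all genes, centring each array on its median moved the calls from E16.5 to E18.5 from 532 higher and 875 lower to 491 and 1337, and the median change from -0.039 to -0.119; Igfbp6 (1.4) and Igfbp7 (1.11) were still higher. Leaving out 1 sample gave 173 to 580 genes higher, 217 to 877 lower, 659 to 1364 changed over the 3 days (1281 with all samples) and 6 to 637 in the second step; without the filter 357 were higher and 532 lower. The 21 genes changed in the first step became 0 to 127 under other settings.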

Other observations

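Irs2, an insulin receptor substrate that links Igf1r and the insulin receptor to PI3K, lay outside the rule for named genes and was chosen after its values were seen. Its log2 expression was 5.54, 6.41 and 6.22 at E16.5, 6.44, 4.96 and 5.62 at E17.5, and 7.78, 7.32 and 6.50 at E18.5. The E18.5 samples lay above all others, with the nearest at 6.50 and 6.44. The difference of 1.14 between E18.5 and E16.5 did not pass (limma adjusted p = 0.092). Irs1, its paralogue, had means of 4.36, 4.19 and 4.80 on the 3 days.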
